A study of Mus musculus with 2 samples.

Results

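Of the 103639 mouse transcripts with an Ensembl identifier in the deposited tables, 4687 are annotated as targets of nonsense-mediated decay. They were chosen by transcript identifier, without version, from the transcript type in the GENCODE M21 annotation. This rule uses no measured value, but it was set with earlier results of these data known. They belong to 3064 genes of the tables. Nonsense-mediated decay is a surveillance pathway that degrades mRNA in which translation stops well upstream of an exon-exon junction. The exon junction complex left at that junction during splicing, together with the helicase UPF1 and the SMG proteins, marks the mRNA for destruction. Many splicing factors and several ribosomal proteins are known to lower their own expression by splicing to such a form, so these transcripts are usually made and then lost.

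The cells were mouse leukemia stem cells carrying Friend virus, the agent of a retroviral erythroleukemia, and the labels call them positive for CD34, CD133, Kit and Sca1. Adult mice of both sexes, aged 10 to 12 weeks and of strains with the sensitive allele of Fv2, were pooled as the source, and RNA labelled as polyadenylated was sequenced. There was 1 group with 2 biological replicates, which share a donor record, and no untreated or uninfected cells. Every value is therefore given for replicate 1 and then replicate 2; the spread may be partly technical, and no condition was compared. The libraries held 23575315 and 22541765 expected counts, the authors' estimated numbers of fragments. Of the genes for the sorted surface markers, Kit (1.81 and 1.06 TPM) and Ly6a (1.45 and 2.15 TPM) reached 1 TPM in both libraries, TPM being a relative level corrected for transcript length. Cd34 had 1.80 and 0.27 TPM, and Prom1, which encodes CD133, had 3 counts and 0, where 0 counts allow up to 3. Erythroid genes were abundant (Klf1 at 1605 and 1053 TPM). The macrophage genes C1qa (238 and 281 TPM), C1qb (212 and 293 TPM) and C1qc (368 and 639 TPM) were also present. Another macrophage gene, Adgre1, had only 3.67 and 0.78 TPM. The B cell gene Cd79a had 436 and 99.4 TPM, while the liver genes Alb and Ttr were at 0. The part of other cell types in the results was not tested. In such bulk RNA, fewer cells of a type and less RNA per cell cannot be told apart.

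The stop codons of 8 of these transcripts are shown because a stop upstream of an exon-exon junction is typical of the class, and because these 8 recur in the results. Each line gives the last 27 coding bases and then the stop codon in capitals, 5′ to 3′, from the GENCODE M21 transcript sequences.
Ddx5-205: cctgatttggcaaggcgcaccgcaatgTGA
Hnrnpdl-201: aatcaccagaacaattaccagccctacTAA
Rpl3-205: gcccctcccccaactgtgctctgctccTGA
Rpl12-201: gggtctgtctccgaagaaagttggcgaTGA
Slc25a37-204: cggcaaacagagaactctagggtcacgTGA
Mst1r-204: ccactacttccctttgatggtccacgcTAG
Bak1-201: tggccctgtacgtctaccagcgtggttTGA
Megf9-201: cagcctcctccctcacatttatatcatTGA
On mm10, the stop codon of Ddx5-205 is at chr11:106782679-106782681 on the minus strand, in exon 3 of 4, and only 3 bases of that exon precede it. The first 24 of the 30 bases printed for it thus lie in exon 2. That of Rpl12-201 is at chr2:32962594-32962596 on the plus strand, in exon 3 of 7, with 7 of the printed bases in the exon before. The stop of Rpl3-205 (chr15:80081034-80081036, minus strand) is in exon 4 of 5, and that of Slc25a37-204 (chr14:69249284-69249286, minus strand) in exon 2 of 4. Mst1r-204 stops in exon 2 of 19 (chr9:107911582-107911584, plus strand) and Bak1-201 in exon 6 of 7 (chr17:27021256-27021258, minus strand). Megf9-201 stops in exon 3 of 4 (chr4:70463416-70463418, minus strand), an exon that no annotated coding transcript of the gene overlaps. Hnrnpdl-201 is a different kind: its stop, in exon 7 of 9 (chr5:100036125-100036127, minus strand), is shared with a coding transcript, its coding sequence is as long as the longest of the gene, and splicing after the stop places it in the class.

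The class as a whole held a small and similar part of the RNA in both libraries. Decay-annotated transcripts held 2.51% and 2.66% of all TPM (2.59% ± 0.105, SD, n = 2) and 2.44% and 2.53% of all expected counts, which is 575808 and 570995 counts. Retained-intron transcripts held 18.1% and 26.0% of TPM, protein-coding transcripts 64.2% and 51.7%, and processed transcripts 6.78% and 6.89%. The decay and processed classes thus lay closer between the libraries than the retained-intron and coding classes.

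Most members were scarce or not seen. In the libraries 2821 and 3083 of the 4687 had 0 counts, and 2427 had 0 counts in both. Such zeros were common in other classes too. In genes with members, more than 1 row and 100 or more counts in each library, 40.2% of members had 0 in both. For coding and retained-intron rows of these genes it was 32.9% and 35.3%. A level of 1 TPM or more was reached by 1043 and 864 members, and by 673 in both libraries, from 613 genes. That is 14.4% of the members, beside 13.9% of all 101510 transcripts with an M21 type, so detection was near the background. The authors also give an interval of TPM without a stated level. Its lower bound was at least 1 TPM in both libraries for 500 members. A level of 100 TPM or more in both was reached by 25 members. The interval count and this one were not made over all transcripts. The 10 highest members held 32.3% and 40.4% of the class's TPM, and the highest alone 14.8% and 12.9%.

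That highest member was Ddx5-205, from the gene of a DEAD box RNA helicase that acts in transcription and splicing. It had 54906 and 50427 expected counts and 3723 and 3439 TPM. Its share of the gene's TPM was 59.2% and 58.8%, so the libraries lay within 1 percentage point of each other. The rest of the gene was mostly the processed transcript Ddx5-203, with 38.5% and 38.3%. Ddx5-205 is 879 bases long and holds only 24 words of 25 bases that no other transcript of its gene in the tables has, which is what a single junction of its own gives. Its other reads could equally come from forms that share those bases and were divided by the authors' estimate.

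**Figure D1:**
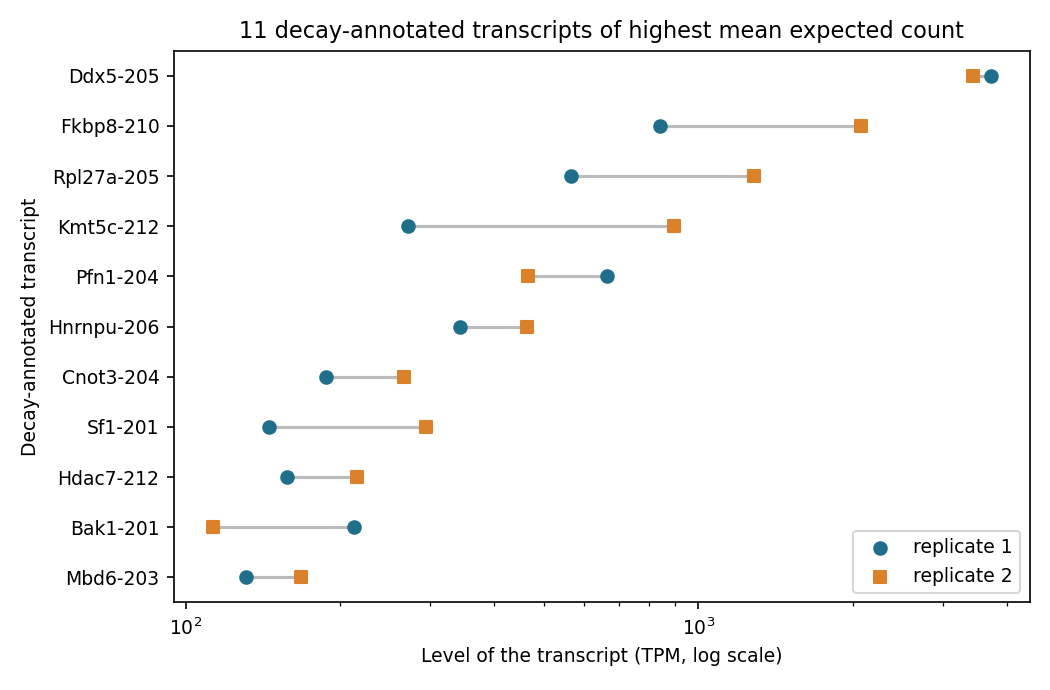
Level in TPM (log axis) of 11 of the 12 decay-annotated transcripts with the highest mean expected count, ordered by mean TPM; circles are replicate 1, squares replicate 2, and lines join the libraries. Ddx5-205 stands highest at 3723 and 3439 TPM, and Mbd6-203 lowest by mean at 131 and 168 TPM.

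Next by expected count was Hnrnpu-206, from the gene of a nuclear matrix RNA-binding protein, with 18411 and 24850 counts and 344 and 463 TPM. The tables list it under a gene identifier of its own with no coding row, so its deposited share of 100% in both libraries has no coding form to be compared with. Over all rows that M21 assigns to Hnrnpu it held 93.8% and 93.3% of TPM. Only 42 of its words are absent from the other M21 transcripts of that gene.

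Other abundant members came from genes for regulators of chromatin, RNA turnover and cell death. Fkbp8-210, from the gene of a mitochondrial inhibitor of cell death, had 842 and 2076 TPM and 55.6% and 76.7% of its gene. Fkbp8-210 is only 496 bases long, and of the gene's expected counts, which are not corrected for length, it held 22.8% and 44.6%, less than the other forms together. The coding transcript Fkbp8-201 had 31.7% and 12.8% of TPM. Kmt5c-212, from the gene of a histone H4 lysine methyltransferase, had 271 and 898 TPM and 49.0% and 69.1%. In both genes replicate 2 had the higher level and the higher share.

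Hdac7-212, from the gene of a class II histone deacetylase, had 158 and 216 TPM and 77.1% and 66.5% of its gene. Cnot3-204, from the gene of a subunit of the CCR4-NOT deadenylase, had 188 and 267 TPM and 42.0% and 40.8%. Mbd6-203 had 131 and 168 TPM and 27.2% and 24.0%, and its gene encodes a methyl-CpG-binding domain protein. All 3 levels were higher in replicate 2, while the shares were within 4 percentage points for Cnot3-204 and Mbd6-203 and lower in replicate 2 for Hdac7-212. Of the expected counts of its gene, Cnot3-204 held 47.3% and 62.5%. Hdac7-212 held 65.9% and 65.4% of its gene's counts, so its lower share in replicate 2 is seen mainly on the TPM scale. The summed decay share of Mbd6 by counts was 21.1% and 23.3%.

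Bak1-201, from the gene of a pore-forming protein that triggers cell death at mitochondria, had 213 and 113 TPM. It held 84.0% and 95.5% of its gene, and the coding transcript Bak1-202 11.9% and 4.50%. Bak1-201 is 1974 bases long and Bak1-202 is 2387, and 41 words are found in Bak1-201 alone. Pfn1-204, from the profilin gene, had 662 and 465 TPM but only 21.5% and 9.20%, since the coding Pfn1-201 had 74.2% and 84.6%.

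Shares within genes were examined in the 7546 genes with 100 or more expected counts in each library. Of these, 1605 hold decay-annotated transcripts, 2576 in all, while the other 2111 members lie in genes below that depth. The typical gene put little of its TPM into the class: the median summed share was 1.92% and 1.57%, and 581 genes (36.2%) had under 1% in both libraries. By the authors' posterior mean shares, a second estimate in the same tables, the medians were 4.06% and 4.15%. The means were 18.1% and 19.6%, because a minority of genes had most of their TPM there. A share of 10% or more in both libraries was found in 440 genes (27.4%), of 50% or more in 205 (12.8%), and of 90% or more in 48. For retained-intron transcripts, 12.6% of 3346 genes had 50% or more in both libraries, close to the decay class.

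Counted by transcript, 170 of 2569 members in genes with more than 1 row held 50% or more of their gene in both libraries, or 6.62%, beside 10.1% of all transcripts of such genes. For a share of 10% or more the count was 434, or 16.9%, beside 22.7%. A decay-annotated transcript had the largest TPM of its gene in 299 and 328 of the 1605 genes. This held for 227 genes in both libraries, with the same transcript in 213. Leading transcripts were not counted for other classes.

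**Figure D2:**
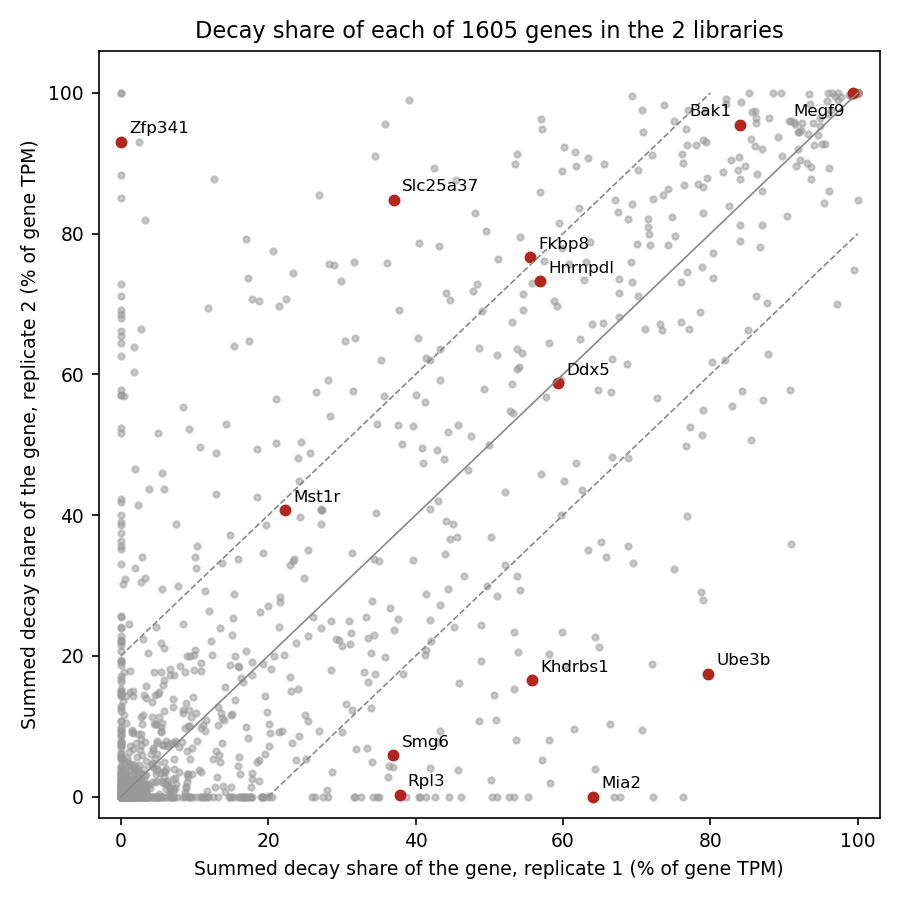
Summed share of decay-annotated transcripts in each of 1605 genes (% of gene TPM), replicate 1 on the horizontal and replicate 2 on the vertical axis; the solid line marks equal shares, the dashed lines a difference of 20 percentage points, and genes in red are named in the text. Most genes crowd near 0 on both axes, and 247 lie outside the dashed lines.

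At the top of the range were genes in which almost no TPM was given to a coding form. Among genes with a coding row in the tables, Cenpl, Nfam1, Pcid2, Pstk, Ripk2, Usp45 and 4933427D14Rik had 100% in both libraries. Cenpl encodes a centromere protein and had 739 and 226 counts, all in decay-annotated transcripts. Pcid2, whose product acts in mRNA export, had 1649 and 359, and Ripk2, a kinase of innate immune signalling, 311 and 507. By the posterior mean these were 98.5% and 95.7% for Cenpl, 98.3% and 92.6% for Pcid2 and 93.5% and 86.2% for Ripk2. The estimates parted most for 4933427D14Rik, with 67.1% and 47.7% by the posterior mean.

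The other genes at the top had a small remainder in other forms in at least 1 library. Megf9-201, from a gene for a membrane protein with EGF-like repeats, had 1687 and 1900 counts and 99.4% and 99.96%. Here the stop lies in an exon of its own, and 302 words are found in no other row of the gene. Lsm11-201, from the gene of a U7 snRNP protein needed for histone mRNA 3′ ends, had 2614 and 4563 counts and 99.1% and 99.5%. It shares its stop with a coding transcript and has 24 words of its own. Wsb1-205, from the gene of a SOCS box ubiquitin ligase adaptor, had 1751 and 1662 counts and 97.7% and 99.4%. The 3 members of the F-box gene Fbxo28 together had 961 and 1616 counts and 98.8% and 99.7%. The sum hides an exchange between members, since Fbxo28-205 had 78.8% and 44.3% and Fbxo28-204 7.30% and 51.7%. The 4 members of Lrrc40, with 486 and 141 counts, had 97.3% and 100%.

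The annotated structures were described next, since the class is defined by structure. Of 4686 members with an annotated stop codon and a junction, 4658 have the stop 50 bases or more before the last exon-exon junction, with a median of 339 bases. There are 2 or more junctions after the stop in 3569 members and 1 in 1107. The median member is 1299 bases long, against 1876 for the coding rows of the same genes and 810 for their retained-intron rows. In 3271 members with annotated start and stop, the median coding sequence is 27.3% as long as the longest of the gene, and it is under 50% in 2396. Of the members, 1330 have no annotated start codon. The stop codon is TGA in 57.9%, TAA in 22.6% and TAG in 19.5%. In the coding transcripts of the same genes, counted once per stop position, TGA makes up 51.3%, and over decay stops that no coding transcript shares, counted likewise, 58.6%.

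Shares were compared over 2566 members in genes with 100 or more counts and a coding row. The members with a stop in an exon of their own, one that overlaps no exon of a coding transcript, numbered 513. They had mean shares of 8.04% and 9.41%. A poison exon would fall in this group, but the group was not limited to such exons. Members whose exons all overlap coding exons and whose stop is their own numbered 1698, with 12.0% and 13.1%. Members that share the stop with a coding transcript numbered 166, with 12.1% and 10.8%. Members with an annotated start codon had 12.7% and 14.2%, and those without, 7.38% and 7.05%. These are descriptions over transcripts that share genes and reads, so no test was made.

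Few members can be told apart from their gene's other forms over much of their length. Of the 4687, 557 have no 25-base word of their own in the tables and 2453 have fewer than 25. Among the 2566, those with fewer than 25 had mean shares of 12.1% and 12.8%, and those with 25 or more 9.65% and 10.8%. A share of 50% or more in both libraries was held by 108 of 1444 of the first and 61 of 1122 of the second. In members with 100 or more counts in each library, the authors' posterior SD was 5.54% and 4.97% of the count at the median (394 members). For coding rows of the same genes it was 4.23% and 4.30% (1422 rows).

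**Figure D3:**
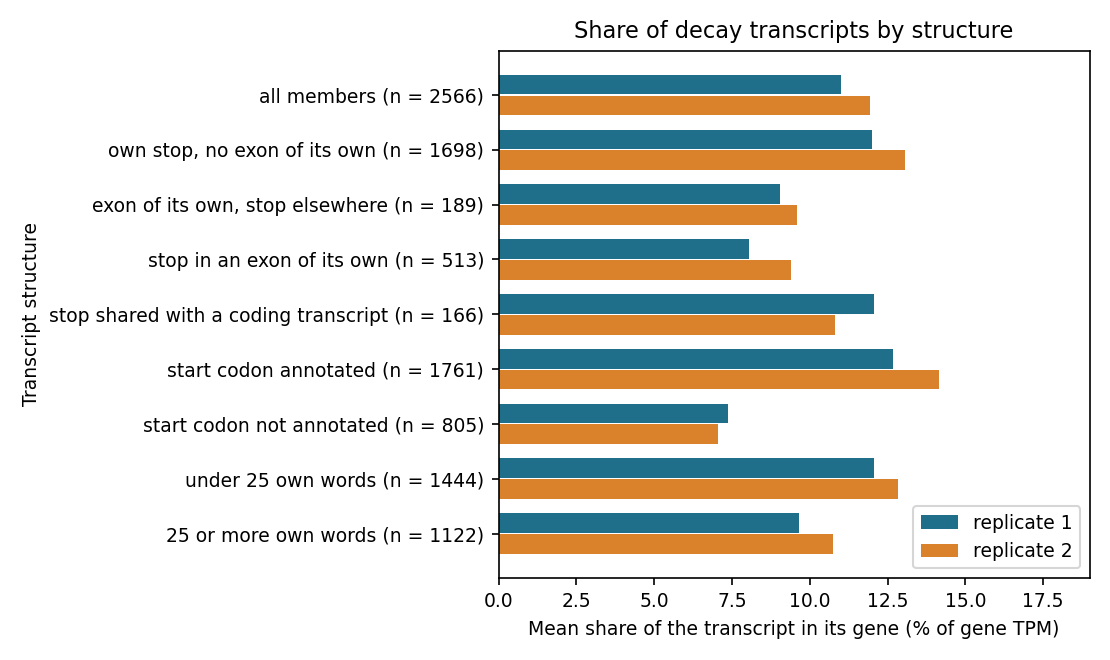
Mean share of decay-annotated transcripts in their gene (% of gene TPM) by structure, for each library, with the number of transcripts in parentheses; bars are means over transcripts and carry no replicate error. Members without an annotated start codon have the shortest bars, at 7.38% and 7.05%.

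Splicing regulators are the textbook case of this kind of control. Of 68 such genes on the list, 41 have members and 39 also reach 100 counts in each library, with median summed shares of 3.87% and 6.81%, beside 1.92% and 1.57% over all 1605 genes. A share of 10% or more in both libraries was found in 12 of the 39 (30.8%), near the 27.4% of all genes, and of 50% or more in 5 (12.8%), the same percentage as over all genes. The SR and Tra2 proteins, which bind exonic enhancers and are known for poison exons, had median shares of 0.855% and 0.065%. Srsf7, Srsf9, Srsf10, Srsf12 and Tra2a hold no decay-annotated transcript here, so they do not enter these medians. Of 8 measured, 4 had under 1% in both libraries, beside 36.2% of all genes, and 1, Srsf11, had 10% or more in both (14.3% and 53.0%). Srsf2 had 0 decay counts in either library, with gene levels of 1559 and 1827 TPM. By the posterior mean shares, Srsf2 had 1.21% and 0.19%. Srsf5, also at 0% in both libraries by the first estimate, had 2.74% and 3.1%. Among the hnRNP proteins, of 8 measured, 2 had under 1% in both libraries, 5 had 10% or more and 4 had 50% or more. Without Hnrnpu, which has no coding row, these last counts were 4 and 3 of 7, beside 27.4% and 12.8% of all genes. The SR and hnRNP splits, and the genes named from them here, were chosen after the values had been seen.

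Hnrnpdl, which encodes an AU-rich RNA-binding protein, had 56.9% and 73.3%. Hnrnpdl-201, with its spliced region after the normal stop, had 1627 and 2736 counts and 30.6% and 43.3%, and Hnrnpdl-205 had 933 and 1261 counts and 26.3% and 29.98%. The coding Hnrnpdl-202 had 29.7% and 26.3%. Both decay forms had the higher share in replicate 2.

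Khdrbs1, which encodes the RNA-binding protein Sam68, had 55.8% and 16.6%, all in Khdrbs1-202 with 7124 and 1630 counts. The retained-intron transcript Khdrbs1-203 went the other way, at 42.5% and 83.3%. Sf1, the branch point binding protein, had 7.41% and 7.94% of TPM but 23.8% and 30.8% of expected counts, from 8900 and 18000 counts. Its main member Sf1-201 has no 25-base word of its own among the rows of the gene.

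**Figure D4:**
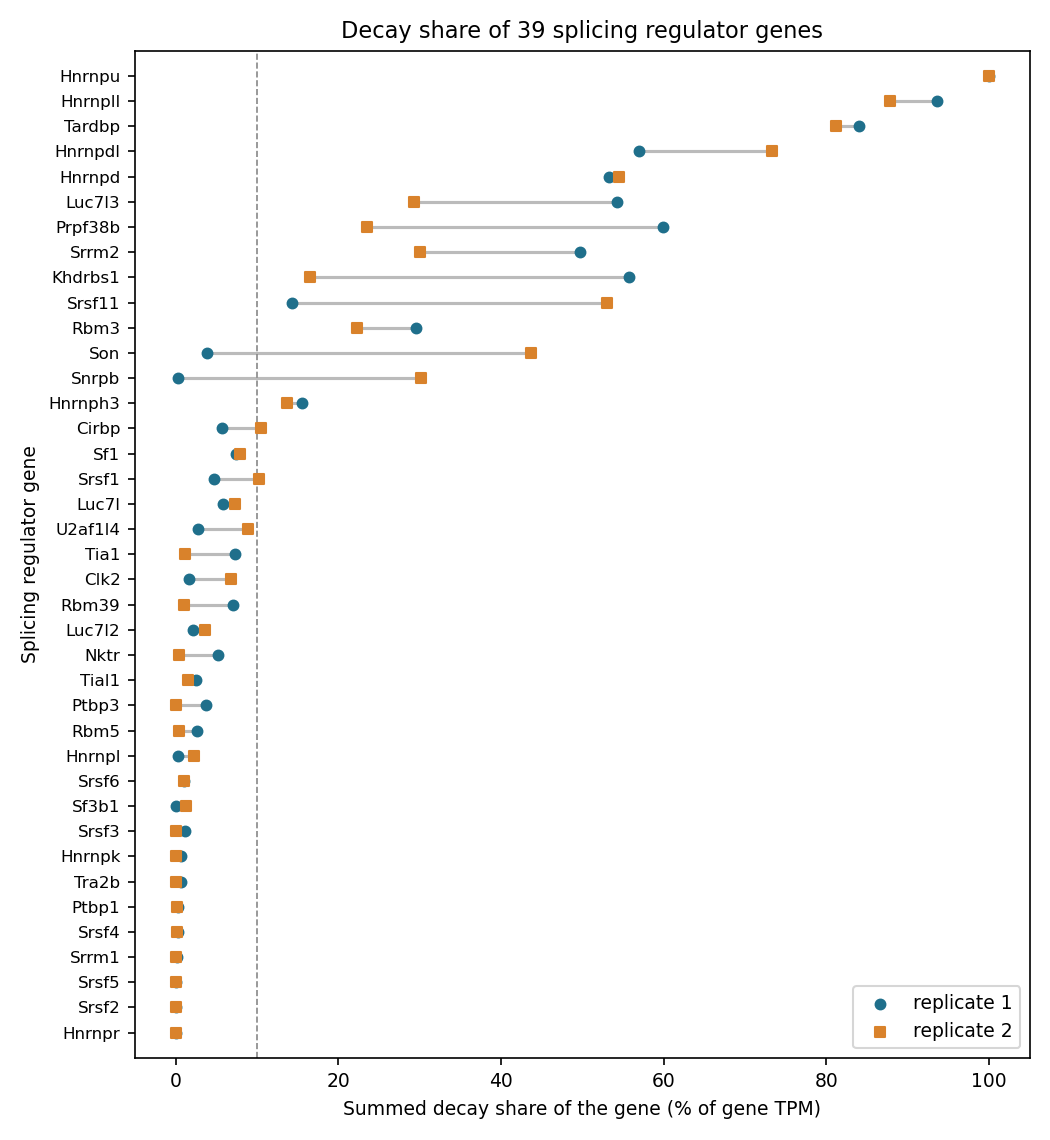
Summed decay share (% of gene TPM) of 39 splicing regulator genes with 100 or more counts in each library; circles are replicate 1, squares replicate 2, and the dashed line marks 10%. Most genes lie left of the line, and Hnrnpu, listed without a coding row, is at 100% in both libraries.

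The genes of the decay machinery were themselves expressed. Of 28, 24 reached 1 TPM in both libraries, with median gene levels of 27.1 and 14.5 TPM. Upf1, the central helicase, had 146 and 169 TPM. The release factor gene Gspt1 had 264 and 439 TPM, and Smg5, whose product recruits deadenylation and decapping, 107 and 88.5 TPM. Upf2 (2.29 and 0.89 TPM) and Upf3b (3.65 and 0.30 TPM), which link UPF1 to the junction complex, and the exonuclease gene Xrn1 (3.22 and 0.54 TPM) were below 1 TPM in replicate 2. In all, 19 of the 28 had the lower TPM in replicate 2, as did 65.9% of 10394 coding genes with 1 TPM or more in either library.

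**Figure D5:**
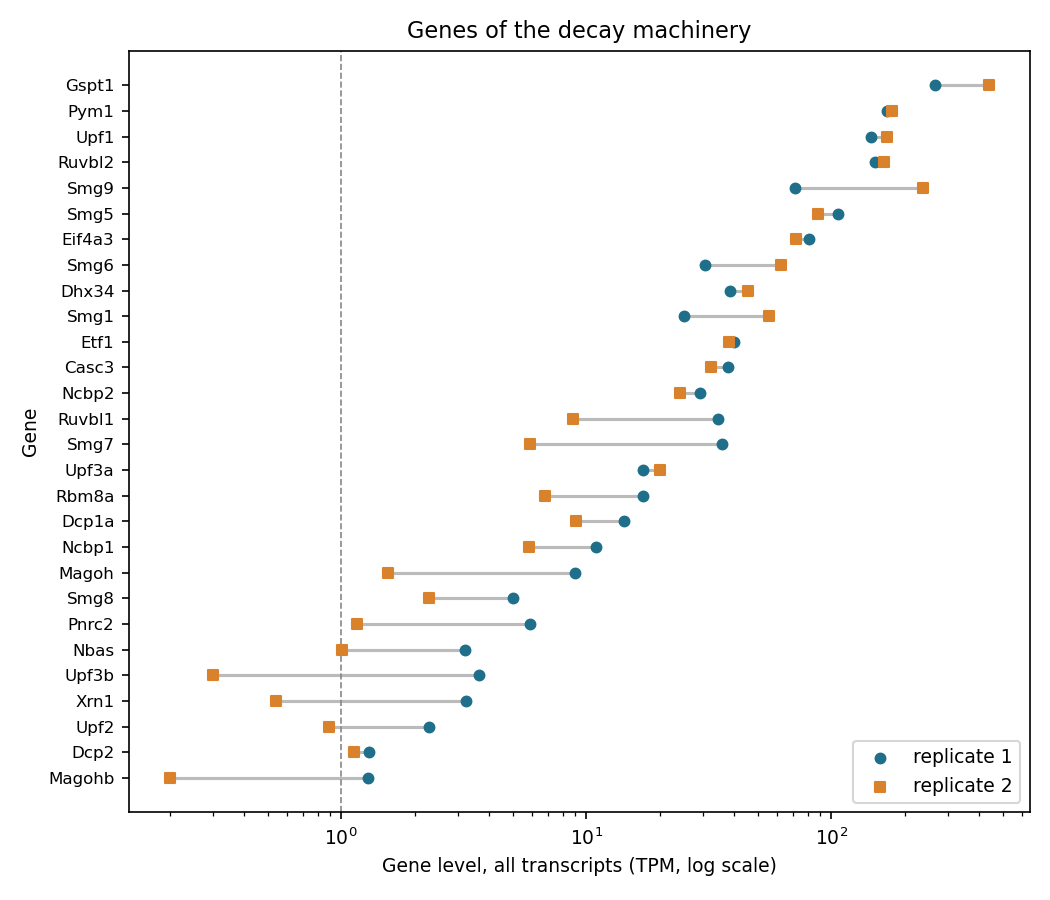
Gene level in TPM (log axis) of 28 genes of the decay machinery, ordered by mean; circles are replicate 1, squares replicate 2, and the dashed line marks 1 TPM. Gspt1 is highest at 264 and 439 TPM, and Magohb, Upf2, Upf3b and Xrn1 lie below the line in replicate 2.

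Only 3 machinery genes had both members and the required depth. Smg6, the gene of the endonuclease that cuts near the premature stop, had 36.99% and 5.89% in Smg6-202, from 876 and 285 counts, and 61.6% and 24.9% of the gene's expected counts. The coding Smg6-201 had 11.4% and 4.45%, and the processed transcript Smg6-206 51.6% and 89.6%. Smg1, the kinase that acts on UPF1, and Smg5 had 0 decay counts in both libraries.

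Of 76 cytosolic ribosomal protein genes, 8 have members. Of these 8, Rpl27a alone (12.5%) had 10% or more in both libraries, beside 27.4% of all 1605 genes. Rpl27a-205 had 4401 and 9818 counts, 566 and 1283 TPM, and 15.1% and 23.0% of the gene. Rpl3 and Rpl12 are known for unproductive splicing that limits their own protein. Rpl3-205 had 767 counts and 2.25, or 37.8% and 0.28% of the gene's TPM and 21.4% and 0.15% of its counts, while the coding Rpl3-201 had 20.5% and 70.3%. Rpl12-201 had 752 and 1237 counts and 5.07% and 14.6%, beside a retained-intron form, Rpl12-202, at 88.4% and 82.7%. The libraries thus differed in opposite directions for these 2 genes. Rps19 had 0.62% and 0.87%.

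Of 53 translation factor genes, 4 could be measured and none reached 10% in both libraries, beside 27.4% of all 1605 genes. Eif4g1, the scaffold of the cap-binding complex, had 2.85% and 5.96% of TPM, from 1908 and 4799 counts, which were 4.74% and 12.2% of its counts. The helicase gene Eif4a1 had 5.22% and 11.3%. Eef1b2, an elongation factor subunit, had 8.42% and 55.3%, but from only 214 and 110 decay counts, and Eif6 had 0 in both.

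In the erythroid and heme list, 5 of 40 genes could be measured, and the mitochondrial carriers of heme synthesis stood highest. Slc25a37 encodes mitoferrin-1, which brings iron into mitochondria. Slc25a37-204 had 2888 and 4503 counts and 70.3 and 109.5 TPM, or 37.1% and 84.9% of the gene's TPM and 22.3% and 85.5% of its counts. The coding Slc25a37-201 had 8271 counts and 250, or 54.7% and 2.41%. Thus replicate 2 combined less of the coding form with a higher decay share, and the posterior mean shares of Slc25a37-204 were the same to within 2 percentage points, at 37.0% and 86.2%.

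Slc25a38, which encodes the mitochondrial glycine carrier, had nearly equal sums of 57.7% and 56.8%, but from different transcripts. All of it was Slc25a38-205 in replicate 1 (1535 counts) and Slc25a38-206 in replicate 2 (386 counts), each at 0 in the other library. Of the gene's expected counts the sums were 43.1% and 38.7%. Slc25a38-205 has no 25-base word of its own among the rows of the gene and Slc25a38-206 has 23. The cause of the exchange was not tested. Among 236 genes with several members and a summed share of 10% or more in both libraries, the leading member differed in 34. Such changes were not counted for other classes. Ank1, the red cell ankyrin gene, had 1.91% and 1.40%. Alas1, the housekeeping first enzyme of heme synthesis, had 0% and 17.2%, or 16.0% and 27.4% by the posterior mean, from at most 15.8 decay counts.

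Mst1r was the one gene of the Friend virus and leukemia list, of 22, with a measured member; it encodes the receptor behind the Fv2 locus. Mst1r-204 had 446 and 405 counts and 4.93 and 4.46 TPM. The gene had 22.1 and 10.96 TPM, and the share of Mst1r-204 was 22.4% and 40.7%, or 16.0% and 35.1% by the posterior mean. Of the gene's expected counts Mst1r-204 held 57.4% and 61.0%, so the libraries lay closer by counts than by TPM. The reason was not tested. The authors' TPM interval was 0.70 to 6.24 and near 0 to 6.44, so the level of Mst1r-204 was poorly determined. Mst1r-204 differs from the coding Mst1r-201 by 5 bases in length (4717 against 4722), and 78 words are its own.

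The libraries agreed on many shares and parted on others. Across the 1605 genes the Pearson correlation of the summed shares was 0.823 and the median absolute difference 2.10 percentage points; the genes share their libraries, and this is a description. In 247 genes (15.4%) the share differed by more than 20 points, higher in replicate 2 in 147 and in replicate 1 in 100, and in 220 of them the posterior mean shares differed by as much in the same direction. Per transcript, 165 members (6.42%) were over 20 points higher in replicate 2, beside 6.81% of all transcripts, and 117 (4.55%) in replicate 1, beside 6.55%. Counted by gene, retained-intron sums differed by more than 20 points in 18.4% of 3346 genes, beside the 15.4% for decay sums by gene. They were higher in replicate 2 in 11.2% and in replicate 1 in 7.17%. Differences in the summed decay share were most frequent in the shallowest genes. Of 502 genes with 100 to 300 counts in the lower library, 18.5% differed by over 20 points. It was 14.0% of 551 with 300 to 1000, and 13.9% of 552 above.

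Among genes with 100 or more decay counts in the higher library, some large differences were exchanges between a coding and a decay form, as in Afg3l1 and Zfp341. Afg3l1-202, from a gene for a mitochondrial protease subunit, had 31.5 and 1060 counts, or 2.53% and 93.0%. The coding Afg3l1-201 had 85.0% and 6.96%. Zfp341-203, from a zinc finger gene, had 0 and 343 counts, or 0% and 93.1%, against 82.0% and 6.91% for the coding Zfp341-202. Both pairs differ by few words: 19 are found in Afg3l1-202 alone and 21 in Zfp341-203.

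The differences were larger still in Lrrc28 (0% and 100%) and Plrg1, a spliceosome gene (0% and 100%), where the processed transcript Lrrc28-207 (93.2% and 0%) and the coding Plrg1-204 (97.2% and 0%) went the other way. Others higher in replicate 2 were Hsd3b7 (0% and 88.4%), with its decay counts in a transcript that M21 assigns to Gm49388, and Sumf2 (0% and 85.1%). Each had 131 to 476 decay counts in replicate 2 and 0 in replicate 1. By the posterior mean, Plrg1 had 16.0% and 80.1%, and Lrrc28 1.46% and 63.5%.

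Toward replicate 1, the members of Mia2, a gene of protein export from the endoplasmic reticulum, had 3108 counts and 0, or 64.2% and 0%. Most of this was Mia2-213, with 2749 counts. Ube3b-202, from a ubiquitin ligase gene, had 5117 and 1844 counts, or 79.7% and 17.5% of TPM, while the processed transcript Ube3b-203, of 663 bases, had 0 and 950 counts, or 0% and 81.8%. Of the gene's expected counts, Ube3b-202 held 78.8% and 64.1%, so most of that difference exists only on the TPM scale. Cdk5rap2, a centrosome gene, had 67.8% and 0% of TPM, but 47.8% and 0% of counts and 47.7% and 0.32% by the posterior mean. Arhgef11 had 67.0% and 0%. Kctd7 had 70.7% and 9.47% of TPM but 27% and 1.48% of counts, and Osgep, a tRNA modification gene, 64.3% and 3.89% of TPM. Of members in measured genes with more than 1 row, 23.7% had 0 counts in only 1 library. For coding and retained-intron rows of these genes it was 19.3% and 27.2%. Of the 2576 members in measured genes, 44 had 0 counts in replicate 1 and 100 or more in replicate 2, and 67 the reverse. These counts were not made for other transcripts, so they show no trait of the class. Not all of these zeros are near 0 by the second estimate: the posterior mean count was under 3 in 8 of the 44 and 23 of the 67, with medians of 6.49 and 4.91 and highest values of 80.8 and 78.9.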

How the data were processed

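Per the accompanying readme files, the authors made a gene and a transcript table for each of the 2 libraries on mm10 with GENCODE M4. Neither an aligner nor a quantifier is given in the sources used here; columns are named as in RSEM output. The deposited expected counts are estimated fragments that need not be whole. The deposited TPM is relative to all 129984 rows of a table, and the deposited FPKM was used as an alternative. The deposited percent is a transcript's share of its gene's TPM or posterior mean TPM, both by the authors.

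Transcript types, structures, positions and sequences are from GENCODE M21 on the same assembly. M21 matched 101510 of the 103639 rows, and 4411 of the 4687 members have the same length in both releases; 36 lie in another gene in M21. The deposited shares were summed per gene identifier of the tables, named by that identifier's symbol in M21. The M21 sequences gave the words of 25 bases. The code was tested on simulated data.

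The members and gene lists were chosen with earlier results of these data known. Named were Mst1r, the 12 members with most counts, the 12 genes with the highest lower share among those with a coding row, the 6 genes that differed most in each direction with 100 or more decay counts, and up to 4 genes per list; 1 of the 12 members is not reported here. With 1 group, no test was made. Alternatives were posterior means, shares of counts, other minimums, member filters and each library alone. Analyses used Python 3.11.15, numpy 2.4.6, pandas 2.3.3 and matplotlib 3.10.9.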

Additional observations from a re-analysis of the deposited data

How the results depend on the processing

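Members at the TPM minimum in both libraries numbered 673, against 1083 at 0.1 TPM and 348 at 5 TPM, and 864 to 1043 in a single library. The class held 2.51% to 2.66% of TPM and 2.44% to 2.53% of counts in a single library. The median summed share was 1.75%, but 4.105% by the posterior mean shares and 2.19% over members with annotated start and stop, and 1.57% to 1.92% in a single library. Genes with 50% or more numbered 205, with 111 at 500 counts and 261 to 295 in a single library. Genes apart by 20 points numbered 247, with 380 at 20 counts, 121 at 500 counts, and 91 at 40 points. Fewer or more genes enter at other count minimums. Splicing regulators with 10% or more numbered 12, and 12 to 16 in a single library. Of 53 named genes, 13 moved by more than the SD between libraries with posterior mean shares and 14 with shares of counts. Both choices were added after seeing the data. Genes at 100% or 0% in both libraries have an SD of 0, so any shift counts there, as for Hnrnpu (100% to 99.995%). Where the libraries lay far apart, the SD is so large that few shifts can count. Shifts over 10 points were seen in 5 and 9 genes. The largest shifts were 42.6 and 32.5 points, and the cause was not tested. No paired analysis was possible because there was 1 group. Shares rest on reads that transcripts have in common, so a 0 is a divided estimate and gives no bound on a member's counts.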

Other observations

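Further splicing regulators, chosen after their values had been seen, had large decay shares. Tardbp encodes TDP-43, which is known to regulate its own mRNA, and had 84.1% and 81.2% of its TPM in decay-annotated transcripts, from 755 and 46.5 counts, or 79.6% and 54.4% by the posterior mean shares. Hnrnpll, which encodes a regulator of CD45 splicing in lymphocytes, had 93.6% and 87.8%, from 1888 and 2177 counts. Hnrnpd, which encodes the AU-rich element binding protein AUF1, had 53.3% and 54.5%, from 1838 and 4328 counts. The last 2 were close between libraries in both estimates.

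The spliceosome gene Snrpb, which encodes a core Sm protein and is known to limit itself by an alternative exon, had 0.31% and 30.2%, from 32.6 and 3450 counts, or 9.13% and 29.9% by the posterior mean. Son, a nuclear speckle protein gene, had 3.87% and 43.7%, from 271 and 2473 counts. Outside this list, Pigt-205, from a gene of GPI anchor attachment, had 0 and 8854 counts, and held 0% and 72.9% of the gene.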
